A study of Homo sapiens with 6 samples.

Results

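The human genome holds 6 genes for conventional actin, the protein that polymerises into the thin filaments of muscle and into the cytoskeleton of every cell. They are ACTC1 and ACTA1, the striated-muscle actins of heart and skeletal muscle, ACTA2 and ACTG2, the smooth-muscle actins, and ACTB and ACTG1, the cytoplasmic actins. All 6 were found by symbol among the 35793 genes of a table of normalized RNA-seq counts, and all 6 were among the 15536 genes tested. The cells were cardiomyocytes at day 15 of differentiation, made from WTC11, an established human induced pluripotent stem cell line. Libraries 1 to 3 of the wild type came from the unedited line, and libraries 1 to 3 of the knockout came from a single line on the same background with both copies of STK25, a serine/threonine kinase, knocked out. No treatment was given to either group. With 1 knockout line, an effect of the genotype and a property of that line cannot be told apart.

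Actin monomers are folded by the chaperonin CCT, bound by proteins such as profilin and cofilin, and assembled into filaments by nucleators such as the Arp2/3 complex and formins. ACTC1 encodes the main actin of the adult heart, while ACTA2 and ACTA1 are also transcribed in heart muscle as it forms. Many actin genes are driven by serum response factor (SRF), which binds a motif named the CArG box and works with cofactors of the myocardin family. Cofactors of that family, the MRTF proteins, are held inactive by free actin monomers.

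The paralogs encode nearly identical proteins, so their transcripts are told apart largely by silent bases and by untranslated ends. Coding sequences of the 6 genes were 81.9% (ACTA2 with ACTB) to 91.2% (ACTB with ACTG1) identical base for base. Of the 163 coding bases at which ACTA1 differed from ACTC1, 96.3% were at the last base of a codon. Of the 99 at which ACTG1 differed from ACTB, 94.9% were at the last base of a codon. A stretch of 60 coding bases near the start of the protein, in exon 2 of each of the 5 transcripts shown, shows how the reads of one paralog can be separated from those of another. Capitals mark bases that differ from ACTC1, and coordinates are GRCh38 with GENCODE 29 transcripts.
ACTC1, chr15:34794713-34794772, minus strand: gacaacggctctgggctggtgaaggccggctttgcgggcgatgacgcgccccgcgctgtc
ACTA2, chr10:88948835-88948894, minus strand: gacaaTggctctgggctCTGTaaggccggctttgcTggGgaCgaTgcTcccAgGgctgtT
ACTG2, chr2:73901345-73901404, plus strand: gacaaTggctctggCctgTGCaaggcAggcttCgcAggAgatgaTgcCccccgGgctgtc
ACTB, chr7:5529568-5529627, minus strand: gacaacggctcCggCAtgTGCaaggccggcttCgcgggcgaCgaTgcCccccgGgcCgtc
ACTG1, chr17:81512265-81512324, minus strand: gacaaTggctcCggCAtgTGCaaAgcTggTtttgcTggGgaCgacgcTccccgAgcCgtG
Here ACTA2 differed from ACTC1 at 13 bases, ACTG2 and ACTB each at 12, and ACTG1 at 17.

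Cut into overlapping words of 31 bases, the transcripts were mostly private to their gene. The share of words found in no other gene was 97.5% for ACTG2, 92.1% for ACTA1, 89.2% for ACTC1, 78.1% for ACTG1, 70.0% for ACTB and 66.8% for ACTA2. Words shared with another of the 6 paralogs were at most 7.18%, in ACTB, and 0.910% in ACTA2. For ACTA2, 32.3% of words were found only in genes outside the family. These included the antisense transcript ACTA2-AS1, which held 431 of the words when both strands were read. The sources used here do not say whether strand was used in counting, so reads of ACTA2 and of its antisense partner may not be told apart. Symbols beginning ACTA2-AS were counted within the list of pseudogenes and fusion genes below, and their values are not given on their own. ACTB and ACTG1 have many processed pseudogenes, and how the authors' counting split words shared with them is not given in the sources used here.

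**Figure D1:**
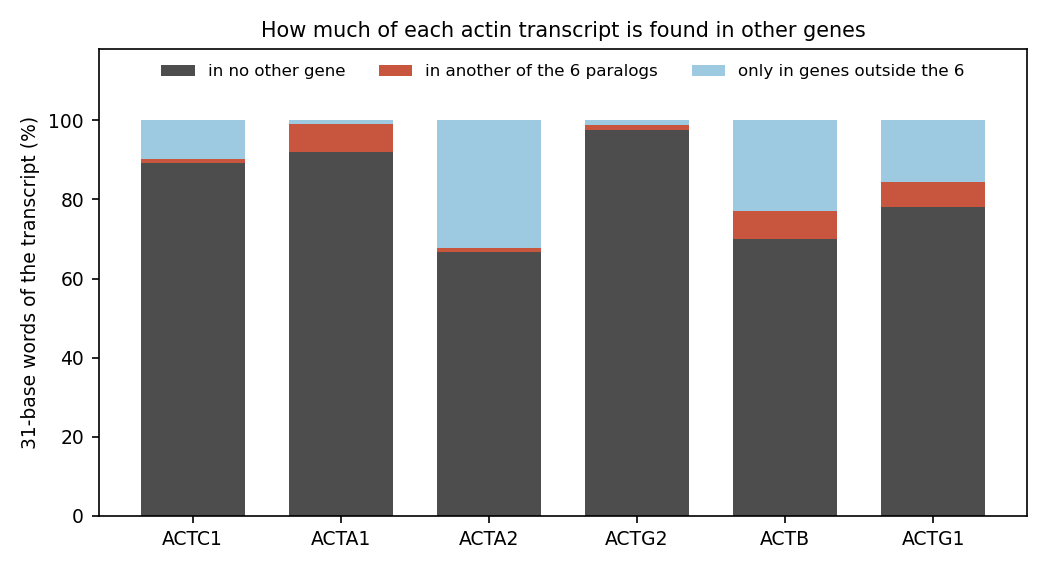
Share of the 31-base words of each actin transcript (vertical axis, %) that occur in no other gene (dark grey), in another of the 6 paralogs (red) or only in genes outside the family (light blue). The red part is at most 7.18% of a transcript, and the light blue part is largest in ACTA2, at 32.3%.

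The CArG box was searched on both strands of the 250 bases before each RefSeq transcription start (GRCh38.p14), which were at hand for 5 of the 6 genes (ACTC1, ACTA1, ACTA2, ACTG2 and ACTG1). Each window below is 30 bases of the gene's strand with the motif in capitals.
ACTC1, chr15:34795639-34795668, minus strand: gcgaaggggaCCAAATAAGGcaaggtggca
ACTA1, chr1:229434172-229434201, minus strand: tgcccaacacCCAAATATGGctcgagaagg
ACTA2, chr10:88952875-88952904, minus strand, 1 mismatch: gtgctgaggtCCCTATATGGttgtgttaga
ACTA2, chr10:88952825-88952854, minus strand, 1 mismatch: tgtctttgctCCTTGTTTGGgaagcaagtg
ACTG2, chr2:73892888-73892917, plus strand: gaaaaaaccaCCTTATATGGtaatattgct
ACTG2, chr2:73892925-73892954, plus strand: cgtcagctggCCTTTTTAGGgactttgttt
ACTG1, chr17:81512874-81512903, minus strand: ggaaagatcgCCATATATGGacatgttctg
The table held 3 starts for ACTC1, 2 for ACTA2 and 1 for each of the others, and the windows shown are from the start with the most matches. An exact CArG box stood before 1 start of each of ACTC1, ACTA1, ACTG2 and ACTG1. The other 2 starts of ACTC1 had no exact box, and the other start of ACTA2 had none even at 1 mismatch. Per start, 1.16% of 35116 promoters of the same length held one. ACTG2 held 2 exact boxes, as did 0.0313% of promoters with 2 or more. ACTA2 held 2 boxes with 1 mismatch each, and 2.89% of promoters held 2 or more at up to 1 mismatch. The ACTC1 and ACTG1 boxes and the ACTG2 box nearer the start lay inside an annotated GENCODE exon of the same gene, for ACTC1 one of the transcript whose length is used here. A match of letters is a description of the sequence and not a measured binding site. The promoters with exact boxes belonged to genes that differed widely in level and in their knockout values, as described next.

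Libraries held 22443904 to 53224112 reads. The first principal component (55.6% of the variance) separated the genotypes, and the second (24.1%) set wild-type library 2 and knockout library 1 apart from the other 4. STK25 itself was 8119 ± 1168 normalized counts (SD, n = 3) in wild type and 3720 ± 251 in the knockout, a fall to 45.8% (limma adjusted p = 0.00903). Of 10 cardiomyocyte markers, all were tested and had reads, and their summed level was 1257530 to 1595294 in wild-type and 1726568 to 3279769 in knockout libraries. Of them 2 fell, phospholamban (PLN), a regulator of the calcium pump, by 0.76 and the cardiac transcription factor NKX2-5 by 1.71 on the log2 scale. For scale, 6.79% of all genes tested were called lower at a limma adjusted p under 0.05. The PLN call was kept, among fits with 1 library left out, only without knockout library 1.

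Compared per kilobase of transcript, ACTC1 was the most abundant actin and ACTG2 the least in both genotypes. The wild-type order was ACTC1, ACTA2, ACTB, ACTA1, ACTG1 and ACTG2, with mean levels that fell by 4.78, 2.35, 1.77, 2.25 and 340 times from one gene to the next. The knockout order was ACTC1, ACTA2, ACTB, ACTG1, ACTA1 and ACTG2, with steps of 1.27, 5.24, 8.28, 1.43 and 323 times. No neighbours in either order overlapped between libraries. ACTA1 and ACTG1 exchanged places, and the step from ACTC1 to ACTA2 narrowed. That step depends on the length used, because the ACTC1 transcript is 3694 bases long and that of ACTA2 1349. Per kilobase of coding sequence it was 13.1 times in wild type and 3.48 times in the knockout, with the same order of genes. In rank among all genes by normalized count, ACTC1 was first or second in every library. ACTA2 moved from ranks 43, 77 and 45 in wild type to 5, 4 and 4 in the knockout.

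Of the 6 actins, 3 passed the test in the knockout, 2 higher (ACTA2 and ACTB) and 1 lower (ACTA1). Across all genes tested, 12.8% were called, 5.97% higher and 6.79% lower, at a limma adjusted p under 0.05. On the recovered reads edgeR called 4 of the 6, against 12% of all genes, and DESeq2 called 5, against 20.7%. The groups did not overlap for 5 of the 6, ACTG2 being the exception, against 33.4% of all genes. The median log2 difference of the 6 was 0.91, beside 0.0052 for all genes tested. With single libraries left out, the number called was 2 without wild-type library 1, wild-type library 3 or knockout library 2, 1 without knockout library 3, and 4 without knockout library 1. It was 5 when wild-type library 2 and knockout library 1 were both left out.

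**Figure D2:**
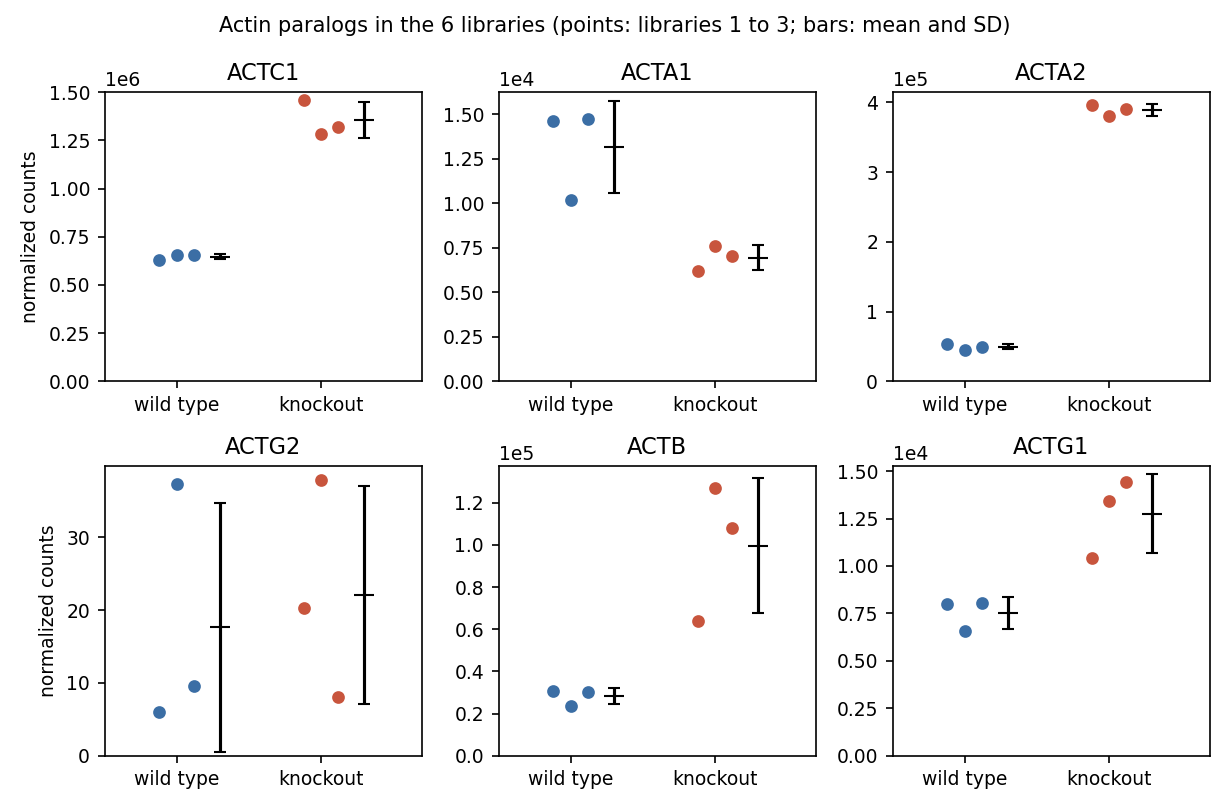
Normalized counts (vertical axis, linear from 0, scaled by the power of 10 above each axis) of the 6 actins in 3 wild-type (blue) and 3 knockout (red) libraries, with mean and SD as bars. ACTA2 lies between 45593 and 52943 in wild type and between 380239 and 396839 in the knockout, and ACTG2 overlaps between groups.

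ACTC1 (chr15:34788095-34795726, minus strand), the cardiac actin of the sarcomere, was read at 630383, 657797 and 654372 normalized counts in the wild-type libraries. In the knockout it was read at 1459295, 1285077 and 1317685. Every knockout library lay above every wild-type library, and the spread within each genotype was small beside the gap. The means were 647518 ± 14937 and 1354019 ± 92618 (SD, n = 3), a ratio of 2.09. The fitted log2 difference was 1.06 (SE 0.36, 95% interval 0.24 to 1.89), which missed the threshold over all genes (limma adjusted p = 0.0958). The limma fit takes part of its spread from other genes of like level. Without that trend the adjusted p was 0.0197 in limma, and edgeR on the recovered reads gave 0.0165 with a log2 difference of 1.05. The cardiomyocyte markers as a sum were also above the wild type in all knockout libraries. Of the 10, limma called 0 higher and 2 lower, edgeR 0 and 3, and DESeq2 3 and 3. Of all 15536 genes tested, limma called 927 higher and 1055 lower, edgeR 866 and 998, and DESeq2 1554 and 1656. At an unadjusted limma p under 0.05, 3 of the markers were higher and 3 lower. The median log2 difference of the 10 markers was 0.085, and -0.20 with libraries scaled to equal totals. The part of these markers in the ACTC1 value was not tested. In bulk RNA, a different share of cells of a type and a different amount of RNA per cell cannot be told apart.

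ACTA1 (chr1:229431245-229434098, minus strand), the skeletal-muscle actin, was the one paralog that fell. It was read at 14635, 10187 and 14705 normalized counts in wild type and at 6211, 7599 and 7045 in the knockout. The groups did not overlap, although wild-type library 2 stood closer to the knockout than the other 2 did. The mean went from 13176 ± 2588 to 6952 ± 699 (SD, n = 3), or 52.8% of wild type. The log2 difference was -0.91 (SE 0.21, limma adjusted p = 0.0317). The call was lost when wild-type library 1 (0.148) or 3 (0.127) or knockout library 2 (0.0678) or 3 (0.111) was left out, these being limma adjusted p values. Of 8 skeletal-muscle markers, the 2 that could be tested both rose, beside 5.97% of all genes tested called higher. They were the embryonic myosin MYH3, by 5.09, and the creatine kinase CKM, by 2.09 on the log2 scale. The myogenic regulators MYOD1, MYF5 and PAX7 had no reads in any library.

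ACTA2 (chr10:88935074-88991339, minus strand), the smooth-muscle alpha actin, differed most of the 6. It was read at 52943, 45593 and 49862 normalized counts in wild type and at 396839, 380239 and 390229 in the knockout. Within each genotype the libraries lay close together, and the lowest knockout library was far above the highest wild-type library. The mean rose from 49466 ± 3691 to 389103 ± 8357 (SD, n = 3), a ratio of 7.87. The log2 difference was 2.98 (SE 0.24, 95% interval 2.42 to 3.53, limma adjusted p = 0.000420). It passed the threshold in all 19 alternative fits.

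ACTG2 (chr2:73892314-73919865, plus strand), the smooth-muscle gamma actin of the gut and bladder wall, was close to absent. It was read at 6.04, 37.3 and 9.57 normalized counts in wild type and at 20.3, 37.9 and 8.0 in the knockout, from 4 to 49 reads a library. The groups overlapped, with the highest library of each genotype at nearly the same value. The log2 difference was 0.46 with a 95% interval of -1.55 to 2.47 (limma adjusted p = 0.791), so no difference between genotypes was resolved from these counts and the spread between libraries. Wild-type libraries 2 and 3, of similar depth, held 49 and 15 reads. Its direction turned when wild-type library 1 (-0.042) or knockout library 2 (-0.033) was left out.

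Of 10 markers of smooth muscle other than actins, 5 rose and 5 did not pass, with a median log2 difference of 0.87. Beside the counts in this paragraph stand the shares of all genes tested, 5.97% called higher and 6.79% lower. Those that rose were the smooth-muscle myosin MYH11, the calponin CNN1, transgelin (TAGLN), smoothelin (SMTN) and the calcium-store protein CASQ2, which cardiac muscle also expresses. The summed level of the 10 was 43337 to 50067 in wild-type and 122648 to 154867 in knockout libraries, and none was without reads. The count of 5 dropped to 2 without wild-type library 1 or 2 or knockout library 2 or 3, and to 3 without wild-type library 3. It was 2 with libraries scaled to equal totals and 2 with a replicate block, and 7 with wild-type library 2 and knockout library 1 both left out. In that last fit, by DESeq2 and without wild-type library 2 alone, 1 marker was called lower. In the main fit 1 of the 10 lay below 0, the myocardin gene MYOCD at -0.63. MYOCD also stands in the list of SRF and its cofactors below. Among markers of stromal cells, 4 of 10 rose (COL3A1, DCN, TCF21 and THY1) and 1 fell (COL1A2, with a log2 difference of -5.01). The count of 4 was 2 without wild-type library 1 or knockout library 2 or 3. Without knockout library 2, 2 were also called lower, and DESeq2 called 5 higher and 2 lower. With wild-type library 2 and knockout library 1 both left out, 7 were called higher and 3 lower. In that fit 2418 of 15381 genes tested were called higher and 2288 lower. The sums of these markers were 13007 to 26601 in wild-type and 8520 to 17310 in knockout libraries. Of the other markers, 1 of 5 tested for the epicardium rose (ALDH1A2), 1 of 4 for pluripotent cells rose (TDGF1) and 1 of 3 for endoderm fell (AFP). None of 4 tested endothelial markers passed in limma, edgeR or DESeq2, and 0 had an unadjusted limma p under 0.05. The part of other cell types in the ACTA2 value was not tested.

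ACTB (chr7:5527147-5563784, minus strand), the cytoplasmic beta actin often used as a reference transcript, was read at 30739, 23789 and 30449 normalized counts in wild type. In the knockout it was read at 64108, 126903 and 108138. The groups did not overlap, and knockout library 1 was well below the other 2. The mean rose from 28326 ± 3931 to 99716 ± 32234 (SD, n = 3), a ratio of 3.52. The log2 difference was 1.77 (SE 0.30, limma adjusted p = 0.00960). Without knockout library 3 the adjusted p was 0.0516.

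Genes near ACTB on chromosome 7 mostly lay above 0 in the same comparison. Of 90 other tested genes in the first 20 Mb of that chromosome, 74 (82.2%) had a fitted difference above 0, with a median log2 difference of 0.62 against 0.0032 for genes elsewhere. In this stretch 20 of the 90 genes rose and 1 fell, beside 5.97% and 6.79% of all genes tested. Of the 90, 6 had a fitted difference at or above that of ACTB. The stretch was chosen after the values were seen, and its part in the ACTB value was not tested. Of 4 tested neural markers, 3 rose (SOX2, PAX6 and TUBB3), beside 5.97% of all genes called higher. The list summed to 56.1 to 120 in wild-type and 444 to 827 in knockout libraries. The PAX6 call was lost in all 6 fits with 1 library left out, and the count was 2 in each of them. It was also 2 with a replicate block. Whether RNA from neural cells had a part in the ACTB value was not tested.

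ACTG1 (chr17:81509971-81523847, minus strand), the cytoplasmic gamma actin, was read at 7993, 6556 and 8023 normalized counts in wild type and at 10421, 13400 and 14445 in the knockout. The groups did not overlap, and knockout library 1 was again the lowest of its group. The means were 7524 ± 838 and 12755 ± 2088 (SD, n = 3), a ratio of 1.7. The log2 difference of 0.75 (SE 0.20, 95% interval 0.28 to 1.23) lay just outside the threshold (limma adjusted p = 0.0507). It passed without knockout library 1 (adjusted p = 0.0216 by limma). When libraries were scaled to equal totals it was 0.47, with a limma adjusted p of 0.298.

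**Figure D3:**
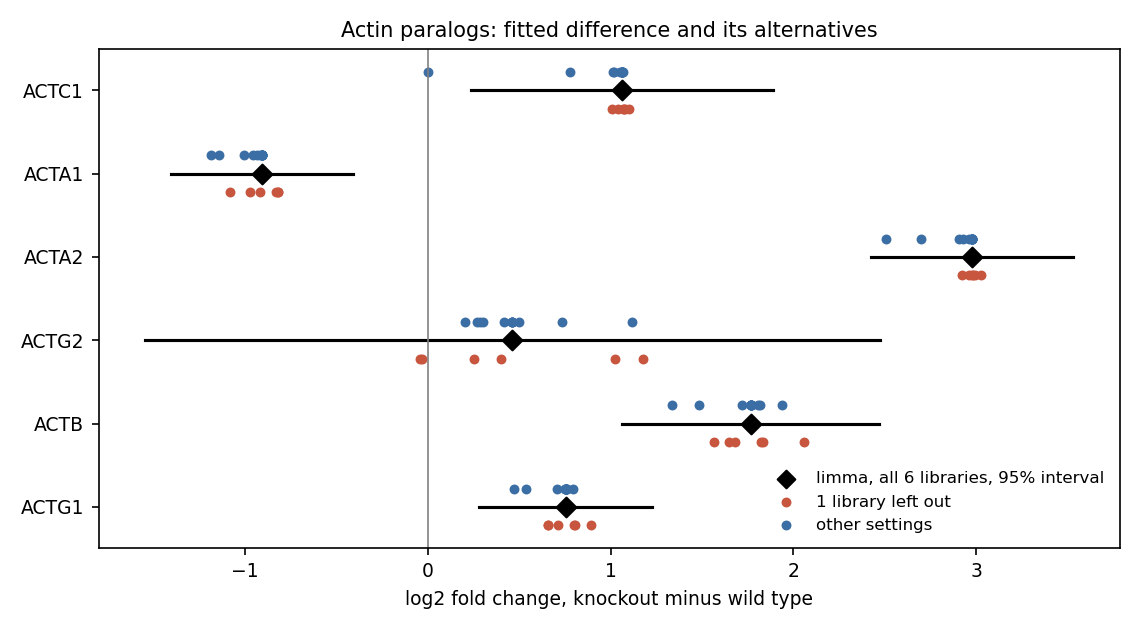
Fitted log2 difference, knockout minus wild type (horizontal axis), for each actin, with the 95% interval of the limma fit (diamond and line), fits with 1 library left out (red) and other settings (blue). ACTA2 at 2.98 stays far from 0 in all fits, ACTG2 lies on both sides of 0, and the blue point of ACTC1 at 0 is quantile normalization.

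The actin pool as a whole lay higher in every knockout library. The 6 genes summed to 746027 ± 10514 normalized counts in wild type and 1862567 ± 65505 in the knockout (SD, n = 3), a ratio of 2.50. As a percent of each library's total, which needs no scaling between libraries, they took 2.17, 1.90 and 2.23 in wild type and 3.89, 4.66 and 4.41 in the knockout. The groups did not overlap, and the exact two-sided permutation p of 0.1 was the smallest that 3 against 3 libraries allow. ACTC1 supplied 63.3% of the gain in summed normalized counts, ACTA2 30.4%, ACTB 6.39% and ACTG1 0.469%, while ACTA1 subtracted (-0.557%).

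The make-up of the pool differed too. ACTC1 made up 86.8% ± 1.47 of the family's normalized counts in wild type and 72.6% ± 2.38 in the knockout (SD, n = 3). ACTA2 made up 6.63% ± 0.531 and 20.9% ± 0.379. The differences for ACTC1 and ACTA2 were of like size and opposite sign, at -14.2 and 14.3 percentage points. Per kilobase of transcript the shares of ACTC1 were 73.0% ± 2.48 and 50.8% ± 2.65 and those of ACTA2 15.2% ± 0.97 and 39.98% ± 0.357, differences of -22.2 and 24.7 percentage points. The share of ACTA1 was 1.77% ± 0.344 in wild type and 0.374% ± 0.0498 in the knockout, and that of ACTG1 1.01% ± 0.111 and 0.688% ± 0.132. For these 4 the groups did not overlap, with an exact permutation p of 0.1 each and 0.15 after Benjamini-Hochberg adjustment over the 6 shares. So ACTG1, although higher in normalized counts, held a smaller share of the pool in every knockout library. The share of ACTB was 3.8% ± 0.524 and 5.4% ± 1.89, and its groups overlapped through knockout library 1 at 3.31% (exact permutation p = 0.3, adjusted 0.36).

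**Figure D4:**
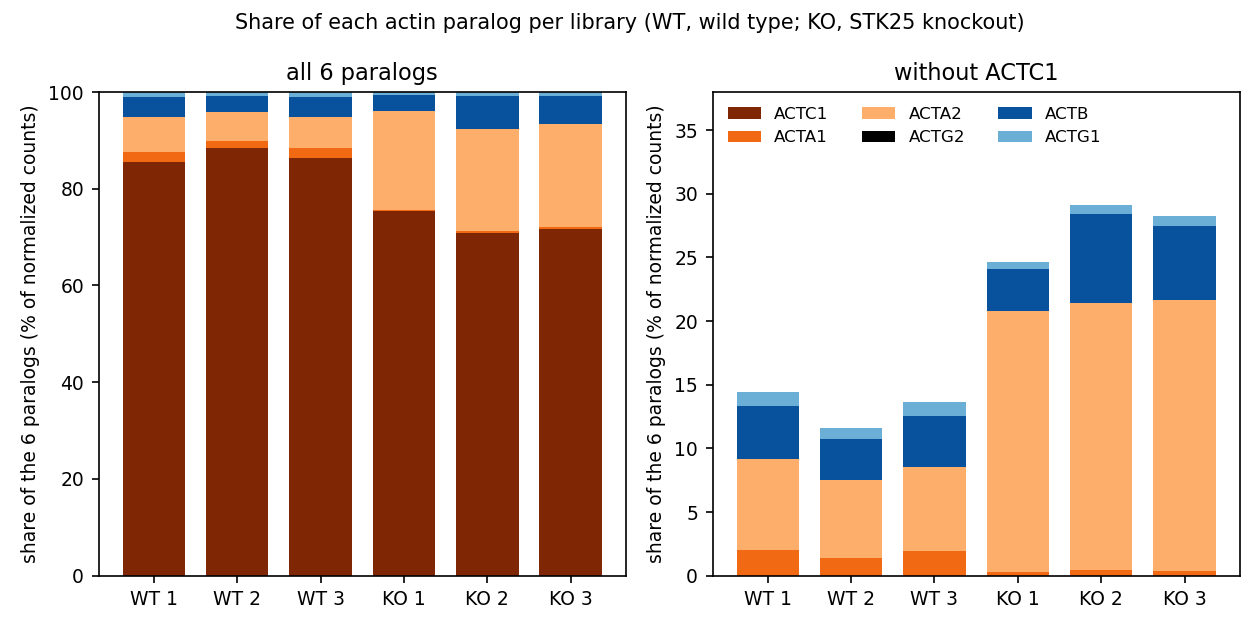
Share of each actin in the normalized counts of the 6 (vertical axis, %) per library, with all 6 stacked on the left and ACTC1 left off on the right. The ACTA2 band is 6.13% to 7.19% in wild-type and 20.5% to 21.2% in knockout libraries, and ACTG2 is too small to be seen.

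Ratios between paralogs within a library do not depend on scaling between libraries. The log2 ratio of ACTA2 to ACTC1 was -3.71 ± 0.14 in wild type and -1.80 ± 0.07 in the knockout (SD, n = 3), a 3.77-fold difference in favour of ACTA2. ACTA1 against ACTC1 went the other way, from -5.64 to -7.61, a 3.92-fold difference. Between the cytoplasmic actins, the log2 ratio of ACTG1 to ACTB was -1.91 ± 0.04 in wild type and -2.92 ± 0.31 in the knockout. The smooth-muscle pair against the striated pair was -3.74 and -1.80, and ACTG2 against ACTA2, which rests on few reads, was -11.90 and -14.37. These 5 ratios did not overlap between genotypes (exact permutation p = 0.1 each, 0.12 adjusted over 6 ratios). The 4 muscle actins against the 2 cytoplasmic actins, at 4.32 ± 0.21 and 4.01 ± 0.56, overlapped, so their difference of -0.31 was within the spread between libraries (exact permutation p = 0.5, also 0.5 adjusted). Without knockout library 1 the groups were apart at -0.63 (exact permutation p = 0.1), and the difference was -0.19, -0.092 and -0.21 without wild-type library 2, knockout library 2 and knockout library 3.

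Genes whose pattern over the 6 libraries was nearest to each actin were ranked by the root-mean-square (RMS) difference of centred log2 values, among genes with a mean of at least 50. LIMS2, an adaptor of integrin adhesions, was nearest to ACTC1 at 0.035, followed by MPV17L2 and MLLT11. PNCK, TNNI3K and ABHD12B were nearest to ACTA2, at 0.14 for PNCK, and TNNI3K is a kinase of cardiac muscle. LRRC14B, COTL1 and ACOX3 were nearest to ACTB, at 0.099 for LRRC14B, and COTL1 encodes a protein that binds filamentous actin. FECH, CERCAM and FADS3 were nearest to ACTA1, and ARHGAP10, HABP4 and GOT1 to ACTG1. HLA-DRA, NCOA7 and LSP1 were nearest to ACTG2, but at 0.45 or more. Among the paralogs themselves the nearest pair was ACTC1 and ACTG1 at 0.27, and the cytoplasmic pair stood at 0.54. Genes were chosen here for likeness to values shown above, so no test applies.

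Genes that handle actin protein were counted in 4 lists, beside 5.97% of all genes called higher. None of 17 genes for folding and modification (such as the CCT and prefoldin subunits, NAA80 and SETD3) passed in limma, edgeR or DESeq2, and 1 had an unadjusted limma p under 0.05. Of these 17, 15 lay above 0, with a median log2 difference of 0.31. The 662 tested genes with a mean of at least 10000 had the same median, 0.31. With libraries scaled to equal totals the median of the 17 was 0.032, beside -0.27 for all genes. Of 15 genes for monomer binding and turnover, 3 rose. They were WDR1, a cofactor of cofilin in filament disassembly (log2 difference 1.53), DSTN, which encodes the severing protein destrin (0.95), and TWF2, a monomer-binding twinfilin (0.85). Of 26 nucleators and elongators, ARPC5, a subunit of the Arp2/3 complex, rose by 0.65 on the log2 scale. Among 16 crosslinkers, FSCN1, the bundling protein fascin, rose by 1.43. The fitted differences stayed above 0 with each library left out in turn, from 1.24 to 1.77 for WDR1, 0.85 to 1.11 for DSTN, 0.76 to 0.92 for TWF2, 0.61 to 0.71 for ARPC5 and 1.24 to 1.69 for FSCN1. The calls did not all hold in those fits, in which as few as 792 of all genes passed. That of FSCN1 was lost without wild-type library 1 or knockout library 3, and that of WDR1 without either of these or knockout library 2. The calls of DSTN and TWF2 were lost without any one of wild-type libraries 1 and 3 and knockout libraries 2 and 3. That of ARPC5 was lost without any one library but knockout library 1. Scaled to equal totals, only DSTN of these genes passed (limma adjusted p = 0.0423). The limma adjusted p there was 0.0855 for WDR1, 0.0804 for TWF2, 0.0795 for FSCN1 and 0.294 for ARPC5. ARPC5 also did not pass in edgeR (adjusted p = 0.0588). With wild-type library 2 and knockout library 1 both left out, 4706 of all genes passed in place of 1982. Of 15381 genes tested in that fit, 2418 were called higher and 2288 lower. In it 7 of the 17 folding genes, 7 of the turnover genes, 9 of the nucleators and 7 of the crosslinkers rose. There 1 turnover gene and 1 crosslinker fell.

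Among 13 tested genes that set thin-filament length or cap its ends, 2 rose, beside 5.97% of all genes. The list median was -0.0012. LMOD3, a leiomodin that nucleates thin filaments in skeletal muscle, went from 86.8 ± 15.3 to 492 ± 41.4 normalized counts (SD, n = 3), a log2 difference of 2.50 (limma adjusted p = 0.00156). CAPZB, the beta subunit of the barbed-end capping protein, rose by 0.95 on that scale, a call lost without wild-type library 1 or 3 or knockout library 3. NEB, the giant thin-filament protein nebulin, was 47.4 ± 2.90 and 11.7 ± 8.4 normalized counts (log2 difference -2.19, limma adjusted p = 0.0730), and TMOD2, a tropomodulin, 143 ± 41.0 and 43.6 ± 29.8 (-1.98, limma adjusted p = 0.0980). Groups did not overlap for either gene, and both were named after their values were seen. DESeq2 called 2 of the list lower, and the fit without wild-type library 2 and knockout library 1 called 3 higher and 3 lower.

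On the transcription side of the pathway, of 9 tested genes for SRF and its cofactors, 2 rose, beside 5.97% of all genes. ABRA, an activator of the MRTF proteins, rose from 1451 ± 276 to 6241 ± 969 normalized counts (SD, n = 3), a log2 difference of 2.11 (limma adjusted p = 0.00130). SCAI, a repressor of MRTF activity, rose by 1.33, a call lost without any of the wild-type libraries or knockout library 3. SRF itself did not pass (log2 difference 0.59, limma adjusted p = 0.0955). Of the 9 genes, 6 lay above 0 and 3 below, and 1 was lower at an unadjusted limma p under 0.05. The lowest, at -0.63, was MYOCD, which encodes myocardin and is named here after its value was seen. DESeq2 called 4 of the list higher and 1 lower. In limma, 1 was called lower without wild-type library 2, and 1 with that library and knockout library 1 both left out.

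Of 16 known targets of SRF and MRTF other than actins, 10 rose, with a median log2 difference of 1.09, beside 5.97% of all genes called higher. MYH11 was read at 314, 152 and 295 normalized counts in wild type and at 7561, 9796 and 8121 in the knockout, a log2 difference of 5.12 (limma adjusted p = 0.000175). FHL1, a LIM-domain protein of striated muscle, differed by 4.34 and TAGLN by 2.21. For each of these 3 genes all knockout libraries lay above all wild-type libraries. The count of 10 was 5 without wild-type library 1 or knockout library 3 and 6 without wild-type library 2. It was 7 with libraries scaled to equal totals and 4 with a replicate block. With wild-type library 2 and knockout library 1 both left out it was 14, where 2418 of 15381 genes tested were called higher. Of the 16, 1 lay below 0 in the main fit, at -0.75, with an unadjusted limma p under 0.05. That last fit, DESeq2, upper quartile scaling and quantile normalization each called 1 lower. MYH11, CNN1, TAGLN and SMTN stand in both this list and that of smooth-muscle markers, so the counts are not separate.

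**Figure D5:**
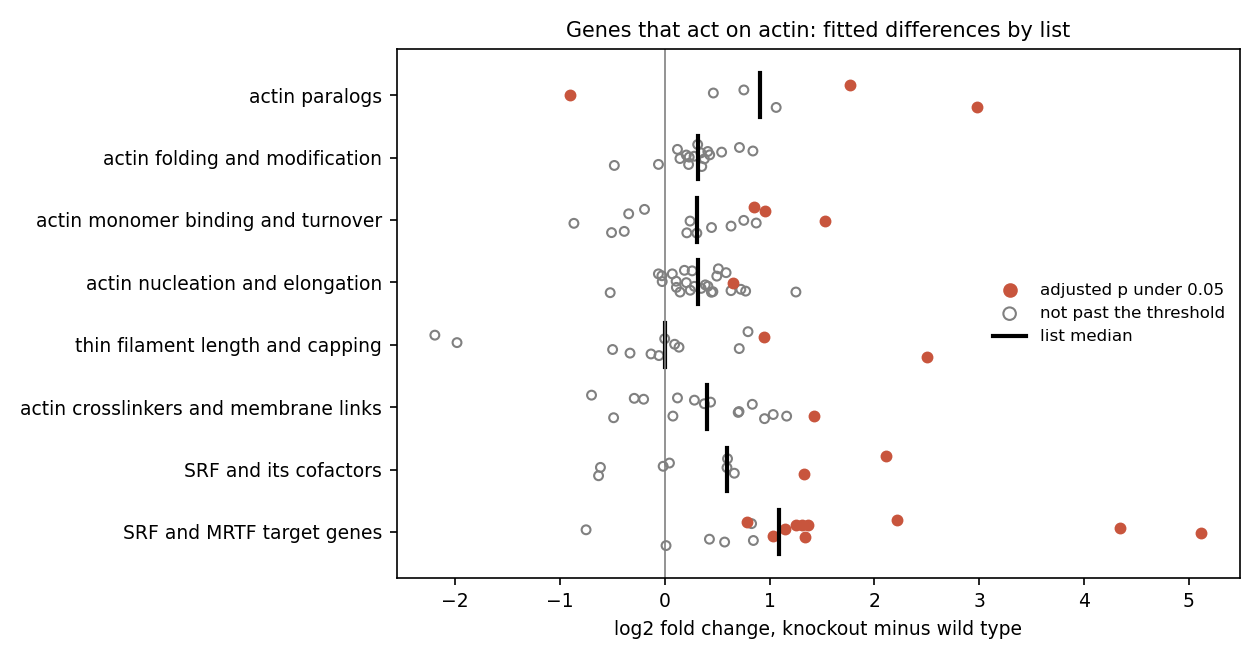
Fitted log2 difference, knockout minus wild type (horizontal axis), of each tested gene in 8 lists of actins and genes that act on or with actin. Filled points passed a limma adjusted p of 0.05, open points did not, and black bars are list medians, from -0.0012 for thin-filament length and capping to 1.09 for the SRF and MRTF targets.

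Pseudogenes and fusion genes that carry actin sequence, listed together with symbols beginning ACTA2-AS, stayed low as a sum. Of 36 listed, 7 had a mean of at least 10 and were tested. The summed level of the 36 was 565 to 592 in wild-type and 456 to 528 in knockout libraries. Fitted log2 differences of the 7 ran from -1.21 to 3.17, with a median of -0.84, and 2 lay above 0. In the main fit 0 of the 7 were called higher, beside 5.97% of all genes. By DESeq2, and in limma with a pseudocount of 10, quantile normalization or no trend, 1 was called higher. POTEF, a fusion gene with an actin-like end, fell by 1.21 on the log2 scale (limma adjusted p = 0.0388), a call that, among fits with 1 library left out, was kept only without knockout library 2. Its direction was opposite to that of ACTB, and its counts may hold reads of the cytoplasmic actins.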

How the data were processed

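Per the labels' protocols, total RNA was column-purified with DNase digestion and made into cDNA and libraries with low-input kits. The submitters' processing notes name bcl2fastq 2.19, kallisto 0.44.0, DESeq2 1.28.1 and GRCh38, without their roles. The deposited values are a signal that the authors' table calls normalized counts, 1 per gene symbol and library. They were whole multiples of 1 read for 100% of values (tolerance 0.001), so reads were recovered for alternatives.

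Genes with a mean of at least 10 were tested with limma 3.58.1 on log2(value + 1), with a mean trend and Benjamini-Hochberg adjustment over 15536 genes, knockout against wild type, 3 libraries each. Fold differences on that scale understate low genes. edgeR 4.0.16 on recovered reads called 1864 genes and DESeq2 1.42.0 called 3210. Shares and ratios were tested by exact two-sided permutation. The series describes the libraries as biological replicates without saying whether each came from its own differentiation, and p-values measure only the spread between these libraries. No libraries of a group agreed within sampling noise. On simulated data, limma recovered 5 of 80 genes changed by 1, 58 of 80 changed by 2 and 34 of 40 changed by 3 on the log2 scale among 15536 genes, with 2 false calls. Other settings included the pseudocount, filters, scalings, a replicate block and leaving out libraries. The members, lists and the rule for named genes (the 3 largest changes past the threshold in each list and the 3 nearest patterns to each actin) were chosen with earlier results of these data known. The coding stretch of 1 paralog is not reported here.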

Additional observations from a re-analysis of the deposited data

How the results depend on the processing

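ACTA2 kept its direction and its side of the threshold in all 19 alternatives (log2 difference 2.92 to 3.03 with 1 library left out). Equal library totals moved the median of all genes to -0.27 and left 27.4% of called genes higher in place of 46.8%. The number of genes called, 1982, was 798 with a replicate block, 3210 by DESeq2, 4706 with wild-type library 2 and knockout library 1 both left out (a choice made after seeing the data), and 792 to 2192 with 1 library left out. The number of actins called, 3, was 1, 5, 5 and 1 to 4 in the same order. ACTC1 passed with equal totals (0.78), without a trend (1.06), with robust eBayes (1.06, adjusted p = 0.0444), in edgeR (1.05), in DESeq2 (1.07) and with both libraries left out (1.02). Quantile normalization put ACTC1 at 0 by construction. Its ranks were 1, 2 and 1 in wild-type libraries 1 to 3 and 2, 1 and 1 in knockout libraries 1 to 3, so both groups were given the same set of values. That normalization brought ACTB to 1.34 (limma adjusted p = 0.0865). ACTA1 did not pass without a trend (-0.91, limma adjusted p = 0.0654). With the replicate block ACTA1 was -0.91 and ACTB 1.77 (limma adjusted p = 0.158 and 0.0629). ACTG1 passed with a pseudocount of 10 (0.75), a minimum mean of 50 (0.75), in DESeq2 (0.76) and with both libraries left out (0.80). With 1 library left out, the ranges were 1.01 to 1.10 for ACTC1, -1.08 to -0.82 for ACTA1, -0.042 to 1.18 for ACTG2, 1.57 to 2.06 for ACTB and 0.66 to 0.89 for ACTG1, and the ACTG2 share difference was -0.0019 to 0.00015 percentage points. The causes of these differences were not tested. Replicate numbers did not pair the samples: deviations of same-numbered libraries correlated at -0.23, -0.40 and 0.17, and not every library correlated best with its own number. ACTG2 rests on 4 to 49 reads a library, and its spread between libraries was not separated from depth.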
